A study of Mus musculus with 5 samples.

Results

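The miR-200 family comprises 5 miRNAs in the mouse, mmu-miR-200a-3p, mmu-miR-141-3p, mmu-miR-200b-3p, mmu-miR-200c-3p and mmu-miR-429-3p (mmu, for the mouse, is left out below), and was described here in Ago HITS-CLIP tables of the developing liver. Members were taken by name: every listed interaction whose miRNA was one of the 5 was used, which gave 16351 of 3254259 interactions (0.502%) and 5 of the 995 miRNAs listed in any table. HITS-CLIP crosslinks RNA to Argonaute with ultraviolet light in tissue, precipitates the protein and sequences what it holds, which yields miRNAs as well as fragments of their target RNAs. Livers came from C57BL/6 mice (C57BL/6J in the methods), as embryos of 3 ages (e12.5, e15.5 and e18.5), from pups of postnatal day 7 (P7) and from mice 6 to 8 weeks old (Adult), with no genetic change or treatment labelled. The tissue received 3 exposures to 254 nm light (0.2 J/cm2), and Ago2 was the protein precipitated from all of them. Ago1 antibodies were added at P7 and Adult only, so the antibody cannot be told apart from the stage. Each stage has 1 table, called a library here, without labelled replicates, and each comparison below sets libraries, not stages, against each other. In bulk liver, fewer cells of a type and less RNA per cell cannot be told apart either.

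The miR-200 family is known from epithelia. Its members are made from a pair of loci, each transcribed as a single primary RNA, and they repress Zeb1 and Zeb2, the transcription factors that silence E-cadherin in the epithelial-mesenchymal transition. Zeb1 and Zeb2 in turn repress the miR-200 loci. In the liver, the family is known from the bile duct epithelium rather than from hepatocytes.

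A miRNA selects its targets mostly through its seed, bases 2 to 8 counted from the 5′ end, and the family holds 2 seeds. The mature sequences are shown because everything that follows is grouped by them; the capitals mark the seed (RefSeq, GRCm38.p6).
miR-200a-3p: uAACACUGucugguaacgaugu
miR-141-3p: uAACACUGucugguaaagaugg
miR-200b-3p: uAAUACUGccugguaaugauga
miR-200c-3p: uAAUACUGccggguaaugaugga
miR-429-3p: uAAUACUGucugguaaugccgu
Counted from the 5′ end, the seeds of miR-200a-3p and miR-200b-3p differ by the substitution C4U. Outside the seed, miR-200a-3p and miR-141-3p differ by C17A and U22G. The same comparison of miR-200b-3p with miR-200c-3p gave U11G and A22G, plus 1 more base at the 3′ end of miR-200c-3p. A 6-base match in RNA to bases 2 to 7 is AGTGTT for miR-200a/miR-141 and AGTATT for miR-200b/miR-200c/miR-429, written as DNA, and no miRNA outside the family shared either of them in the tables.

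The members come from chr4:156053905-156055750, where Mir200b, Mir200a and Mir429 lie on the minus strand within 1846 bases, and from chr6:124717914-124718390, where Mir200c and Mir141 lie on the minus strand within 477 bases (GRCm38). Each seed group therefore draws on both loci. miR-200a-3p and miR-141-3p share a seed but not a locus.

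Abundance was read from the whole number that each interaction name carries for its miRNA, in reads per 1000000 miRNA reads (rpm), the miRNA reads being the sum over all miRNAs. The tables do not explain this number. As a check on it, the clusters that lie over the members' own genes held nearly the same number of reads in 24 of 25 combinations of member and library, with ratios from 0.986 to 0.999; miR-200a-3p had no such cluster listed in the Adult library.

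All 5 members were highest in the P7 library. In order of age, from e12.5 to Adult, mmu-miR-200b-3p had 185, 417, 2034, 4221 and 990 rpm. Its place among the miRNAs went from 169 of 745 at e12.5 to 40 of 743 at P7, the highest place of the family. mmu-miR-200a-3p, the least abundant member up to P7, had 19.8, 137, 275, 819 and 184 rpm. mmu-miR-429-3p had 175, 446, 1089, 1773 and 131 rpm. These 3 members, all from chromosome 4, were higher in each library than in the one before it until P7.

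The pair from chromosome 6 started higher and moved less up to P7. mmu-miR-200c-3p had 1060, 1140, 1590, 3229 and 515 rpm, and mmu-miR-141-3p had 936, 913, 1266, 3244 and 357 rpm. Counting error was small beside these differences: at P7 the 95% Wilson interval of miR-200b-3p ran from 4185 to 4258 rpm and that of miR-200a-3p from 803 to 836 rpm. The pairs that stayed close were miR-200c-3p and miR-141-3p at P7, whose intervals of 3197 to 3261 and 3212 to 3277 rpm overlapped, and miR-200b-3p and miR-429-3p at e12.5, whose intervals of 180 to 190 and 170 to 180 rpm overlapped. These intervals cover counting error only, and no spread between livers can be given.

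**Figure D1:**
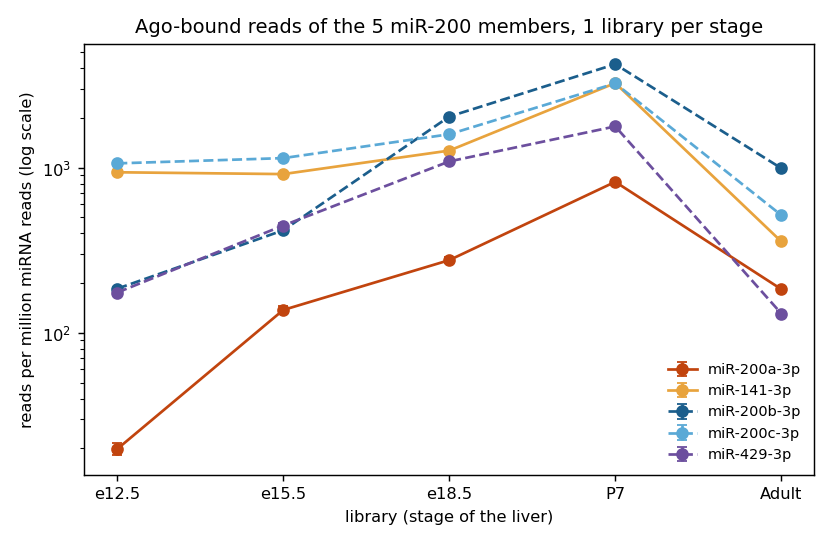
Abundance in rpm of each member (log axis) in the 5 libraries, with 95% Wilson intervals that mostly fit within the points; full lines are the miR-200a/miR-141 seed and broken lines the miR-200b/miR-200c/miR-429 seed. Every member peaks at P7, and the chromosome 4 members miR-200a-3p, miR-200b-3p and miR-429-3p climb from far lower levels at e12.5.

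Summed, the family held 0.238%, 0.305%, 0.625%, 1.33% and 0.218% of the miRNA reads in the same order. The e15.5 value rests on how its 2 lists are weighed, since the first gave 0.509% and the second 0.238%, the latter no higher than the 0.239% of the second e12.5 list. From e12.5 to P7 the family was 5.59-fold higher on the scale of rpm plus 1. The folds of the members were 39.4 for miR-200a-3p, 22.7 for miR-200b-3p, 10.1 for miR-429-3p, 3.46 for miR-141-3p and 3.05 for miR-200c-3p. All 5 were thus at least 2-fold higher, as were 33.3% of the 240 miRNAs with 100 rpm or more in either library, while 35.8% were at least 2-fold lower. Of the 255 miRNAs with 100 rpm or more in any library, 24.7% had their highest value at P7. Members of one primary transcript are not independent of each other.

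The size of that difference depends on the total. The blood miRNAs miR-142a-3p, miR-144-3p and miR-451a fill much of the early libraries, and together with miR-223-3p they went from 61.4% of all miRNA reads in the youngest library to 6.70% in the Adult one. With the first 3 of these left out of the total, the family held 0.607%, 0.621%, 0.980%, 1.50% and 0.233%, and the log2 ratio of P7 to e12.5 went from 2.48 to 1.30. The P7 library was the highest and the Adult library the lowest on either total. Per read of the whole library, miRNA or not, the family made up 0.0894%, 0.116%, 0.221%, 0.791% and 0.163%, so that P7 was again the highest but the Adult library lay above e12.5 and e15.5.

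From P7 to the Adult library, every member was lower: miR-429-3p by 13.5-fold, miR-141-3p by 9.07-fold, miR-200c-3p by 6.26-fold, miR-200a-3p by 4.44-fold and miR-200b-3p by 4.26-fold. The median miRNA was also lower in the Adult library, by a log2 ratio of -1.10, and 53.7% of 203 miRNAs were at least 2-fold lower against 10.3% at least 2-fold higher. Relative to that median, the family still fell by 1.51 on the log2 scale. miR-200b-3p was the most abundant member in the Adult library as in those of e18.5 and P7, whereas miR-200c-3p had been at e12.5 and e15.5.

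The balance of the loci shifted. miR-200c-3p and miR-141-3p supplied 84.0%, 67.2%, 45.7%, 48.7% and 40.1% of the family's reads from e12.5 to Adult. The 3 embryonic tables each hold 2 lists with read numbers of their own, which were added up. Taken apart, the first lists gave 73.3%, 66.0% and 45.6% by age, and the second lists 86.8%, 68.1% and 45.8%. The order of the embryonic libraries was therefore the same in either list, and the difference between lists at e12.5 was smaller than that between e12.5 and e18.5.

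**Figure D2:**
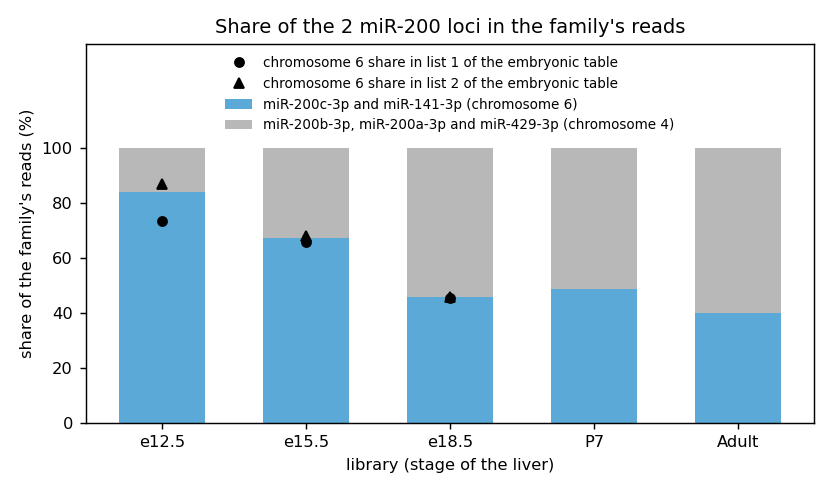
Share of the family's reads (percent) from the chromosome 6 pair (blue) and the chromosome 4 trio (grey) in each library; circles and triangles give the chromosome 6 share in the 2 lists of each embryonic table. The chromosome 6 share falls from 84.0% at e12.5 to 45.7% at e18.5 and 40.1% in the Adult library.

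Within a locus, the ratio of the mature miRNAs was not fixed. From e12.5 to Adult, miR-429-3p had 94.8%, 107%, 53.5%, 42.0% and 13.2% as many reads as miR-200b-3p. On the same transcript, miR-200a-3p had between 10.7% (e12.5) and 32.9% (e15.5) of the reads of miR-200b-3p. miR-141-3p stayed closer to its partner, at 88.3%, 80.0%, 79.7%, 100% and 69.2% of miR-200c-3p over the 5 libraries.

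The miRNAs whose profile over the 5 libraries was most like the summed family, by Pearson correlation of log2(rpm + 1) among 250 others, were miR-30e-5p (0.98), miR-30c-5p (0.97), miR-99b-5p (0.97), miR-30d-5p (0.95) and miR-146b-5p (0.94). This is a description over 5 points that share their library totals. miR-30e-5p, for example, had 3843, 5289, 10175, 16490 and 4843 rpm, a peak at P7 like that of the family. The 6 other epithelial miRNAs on the marker list (miR-203-3p, miR-205-5p, miR-375-3p, miR-96-5p, miR-182-5p and miR-183-5p) were far rarer and summed to 146, 250, 462, 538 and 107 rpm, again highest at P7 and lowest in the Adult library. Singly they differed: miR-375-3p (190 rpm) and miR-96-5p (66.3 rpm) were highest at e18.5, and miR-203-3p was higher in the Adult library (57.2 rpm) than at e12.5 (9.16 rpm). Hepatocyte miRNAs, with miR-122-5p the best known, moved differently and held 2.36% of the reads at e12.5, 23.0% at P7 and 23.0% in the Adult library. The mesenchymal list held 0.259%, 1.24% and 0.791% in the same libraries. Of its 4 miRNAs, miR-199a-3p and miR-143-3p were highest at P7 (8165 and 4120 rpm), whereas miR-145a-5p had 73.2 rpm there and was highest in the Adult library (1587 rpm), and miR-214-3p had 36.3 rpm there and was highest at e18.5 (137 rpm). Whether the share of any cell type accounts for the profile of the family was not tested.

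Sites were then compared between the seeds. Members of a seed group shared most of their sites, as a site can be listed for several miRNAs. Between 91.5% and 93.1% of the miR-200a/miR-141 sites in a library were listed for both members, and between 85.6% and 90.9% of the miR-200b/miR-200c/miR-429 sites for all 3. The sites cannot say which member was bound, and they are given per seed group from here on.

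The miR-200a/miR-141 seed had more sites than the miR-200b/miR-200c/miR-429 seed in every library, although its miRNAs were the rarer ones. The 3′UTR clusters are regions of overlapping reads that reach an annotated 3′UTR, and only those with a listed match of some miRNA are counted. From e12.5 to Adult, 629, 492, 537, 630 and 488 seed families had such matches, so the totals may depend on the miRNAs listed. In the same order, 419 of 39452, 253 of 18219, 154 of 16150, 245 of 29603 and 151 of 15914 3′UTR clusters held a miR-200a/miR-141 site. The corresponding counts for miR-200b/miR-200c/miR-429 were 220, 129, 80, 118 and 41. As shares these were 1.06%, 1.39%, 0.954%, 0.828% and 0.949% for miR-200a/miR-141, and 0.558%, 0.708%, 0.495%, 0.399% and 0.258% for miR-200b/miR-200c/miR-429. With the first list alone, the miR-200a/miR-141 share at e15.5 was 0.950%, below the 1.06% of e12.5 and the 0.977% of e18.5, so that its high value at e15.5 rests on the second list. Counted over genes with a 3′UTR cluster, e12.5 was above e15.5 for miR-200a/miR-141 (4.68% against 3.98%) and for miR-200b/miR-200c/miR-429 (2.46% against 2.12%). The intervals of the seeds did not overlap in any library; in the Adult library they were 0.810 to 1.11% and 0.190 to 0.349%. Over the same libraries the miRNA reads ran the other way, at 956 rpm for miR-200a/miR-141 against 1420 rpm for miR-200b/miR-200c/miR-429 at e12.5, and 4064 against 9224 rpm at P7.

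The site shares were set beside the miRNAs between e12.5 and P7. In that comparison, in which the reads of both seeds were higher at P7, the share of 3′UTR clusters with a site was lower by a log2 odds ratio of -0.36 for miR-200a/miR-141 (95% interval -0.59 to -0.13) and of -0.49 for miR-200b/miR-200c/miR-429 (-0.81 to -0.16). Fisher's exact test, two-sided and with Benjamini-Hochberg adjustment over the 446 seed families with 50 or more 3′UTR clusters in both libraries, gave adjusted p of 0.0055 and 0.0084. Such differences were common: 35.0% of the families were lower at P7 and 11.4% were higher at the same threshold of 0.05. Lower calls did not outnumber higher ones over clusters of all regions, where 33.7% of 490 families were lower and 33.7% higher. In every other setting tried lower calls were the more frequent. With genes in place of clusters, 72.4% of 445 families were lower and 4.04% higher. The test compares 2 libraries and holds no variation between livers. In the same exact test, the call was lost for miR-200a/miR-141 with clusters of at least 10 reads (log2 odds ratio -0.16, adjusted p = 0.34) and with sites of at least 7 matched bases (-0.32, adjusted p = 0.14), for miR-200b/miR-200c/miR-429 with clusters of all regions (-0.13, adjusted p = 0.20), and for both seeds with the first e12.5 list alone (adjusted p = 0.068 and 0.40).

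Between e12.5 and the Adult library, miR-200a/miR-141 differed by a log2 odds ratio of -0.16 (-0.43 to 0.11), with an adjusted p of 0.33 in Fisher's exact test over 307 families, of which 21.2% were called lower and 20.8% higher. Counted over genes in place of clusters, the exact test gave -0.92 (adjusted p = 6.25e-11), but in that count 84.3% of 305 families were called lower and 4.26% higher, so that the call is no result about the seed. The e12.5 library had 39452 3′UTR clusters against 15914 in the Adult library, and the part of this in the gene count was not tested. With 41 clusters in the Adult library, miR-200b/miR-200c/miR-429 was under the minimum of that test. Its shares of 0.558% and 0.258% were not tested. Over clusters of all regions the shares were closer, at 0.328% (0.304 to 0.354%) and 0.294% (0.259 to 0.334%). In that count, 18.7% of 391 families were called lower in the Adult library than at e12.5 and 50.4% higher.

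**Figure D3:**
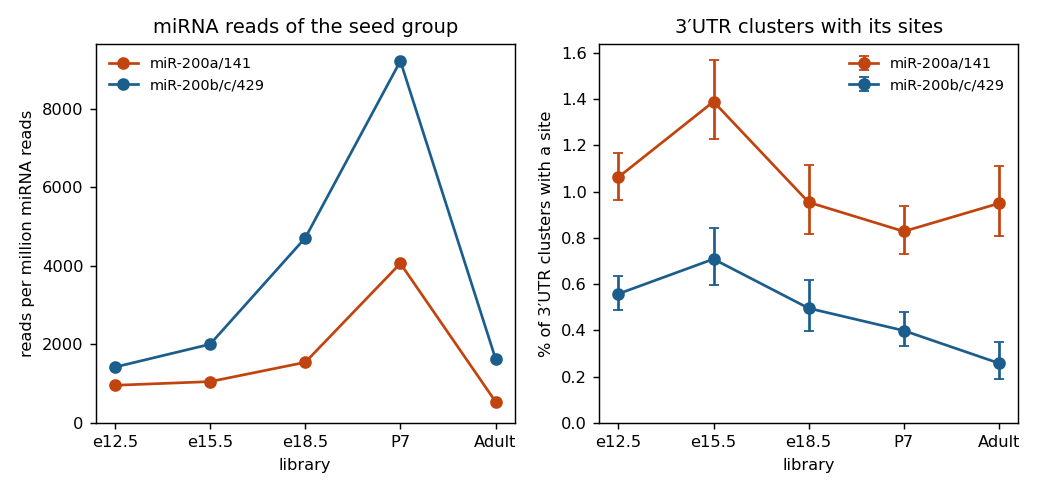
Left, rpm summed over each seed group; right, the percentage of 3′UTR clusters with a site of the seed, with 95% Wilson intervals, both by library. The reads peak at P7 for both seeds, whereas the site shares with both lists joined are highest at e15.5, and the miR-200a/miR-141 seed has fewer reads and more sites throughout.

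Where the sites lay differed between the seeds. Of the miR-200a/miR-141 sites, 23.7% to 28.4% fell in 3′UTRs, 16.7% to 32.4% in coding sequence and 22.5% to 35.8% between genes, depending on the library. For miR-200b/miR-200c/miR-429, 3′UTRs held 29.4% to 34.6% in the libraries up to P7 and 17.2% in the Adult library, where coding sequence held 48.5%. Over all seed families, the share in coding sequence likewise ran from 31.1% at e12.5 to 49.0% in the Adult library. Matches of bases 2 to 7 alone, called 6mers, made up 53.1% to 59.1% of the 3′UTR sites of miR-200a/miR-141, 42.6% to 53.7% of those of miR-200b/miR-200c/miR-429 and 52.6% to 54.1% of those of all families. The longest matches, 8mers, which pair with bases 2 to 8 and have an A opposite base 1, made up 5.5% to 10.2% for miR-200a/miR-141 and 7.3% to 17.1% for miR-200b/miR-200c/miR-429. The 8mer share over all families was 7.4% to 8.3%.

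The heights of clusters with a member site were taken with the 2 lists of an embryonic table apart. The highest number of reads in a 3′UTR cluster had a median of 37 at e12.5 for miR-200a/miR-141, 35 for miR-200b/miR-200c/miR-429 and 33 over all families, and in the Adult library the medians were 26, 19 and 22. The tallest member clusters held 970 reads for miR-200a/miR-141 and 595 for miR-200b/miR-200c/miR-429, both at e12.5. With the reads of overlapping clusters added over both lists, the largest sums at e12.5 were 1311 and 976 reads and the medians 36, 35 and 33. These values are not scaled to library size.

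A clear difference between the seeds lay in conservation. The deposited score of each site runs from 0 to 1. Its median over the 3′UTR sites of miR-200b/miR-200c/miR-429 was 0.93, 0.92, 0.98, 0.91 and 1.0 (0.997) from e12.5 to Adult. For miR-200a/miR-141 the medians were 0.38, 0.39, 0.27, 0.28 and 0.19, close to those of a typical seed family at 0.30, 0.50, 0.27, 0.17 and 0.26. Ordered by this median among the seed families with 20 or more 3′UTR sites, miR-200b/miR-200c/miR-429 came 25 of 627, 34 of 458, 17 of 496, 20 of 624 and 2 of 466. miR-200a/miR-141 came 261, 273, 248, 242 and 280 of the same numbers. The Adult value rests on 41 sites, and some sites are shared between libraries. The order of the seeds was the same for sites of at least 7 matched bases, with medians of 0.93 to 1.0 (0.998) for miR-200b/miR-200c/miR-429 and 0.19 to 0.64 for miR-200a/miR-141.

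**Figure D4:**
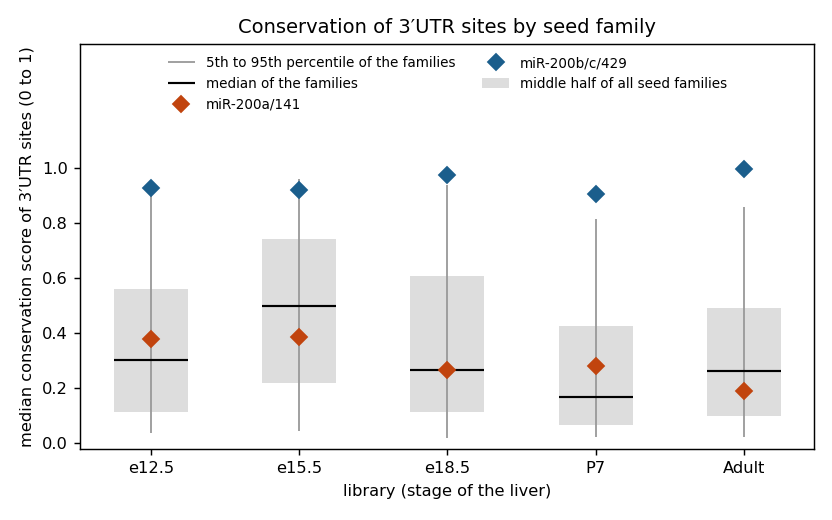
Median conservation score of 3′UTR sites (0 to 1) by library for miR-200a/miR-141 (red) and miR-200b/miR-200c/miR-429 (blue), over the medians of all seed families with at least 20 such sites (grey bar, 25th to 75th percentile; thin line, 5th to 95th; black line, median). The blue points lie above 0.9 in every library, and the red points stay within the grey bars.

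Sites of the 2 seeds named 1126 genes by a 3′UTR site in at least 1 library, of 11065 genes with any 3′UTR cluster. miR-200a/miR-141 had 795 genes in all, with 394, 236, 148, 234 and 146 in the libraries from e12.5 to Adult. miR-200b/miR-200c/miR-429 had 427, with 207, 126, 77, 117 and 40. The library with the most 3′UTR clusters, e12.5, had the most genes for both seeds, but P7 had fewer than e15.5 with more clusters. In recurrence, 227 of the 795 genes (28.6%) and 108 of the 427 (25.3%) were listed in 2 or more libraries, beside 24.9% of 365392 pairs of seed family and gene. With the first list of the embryonic tables alone, the shares of the seeds were 23.0% and 14.3%, and the share over all families was not counted for that list. For 3 or more libraries the shares were 10.6%, 6.09% and 8.66%. In all 5 libraries, 12 genes were listed for miR-200a/miR-141 and 0 of the 427 genes for miR-200b/miR-200c/miR-429.

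The genes that follow were ordered by the number of libraries with a 3′UTR site and, among equals, by their mean over the libraries of reads per 1000000 cluster reads. The reads printed are not scaled. They are the highest numbers of the clusters with a site, added over clusters and, in the embryonic libraries, over both lists, and are given from e12.5 to Adult. For miR-200a/miR-141 the order was led by Atf1, a transcription factor of the CREB family, with 1192, 292, 370, 280 and 126 reads. Slc12a7, a potassium-chloride cotransporter, had 273, 11, 346, 614 and 287 reads. Tmed3, a cargo receptor of the secretory pathway, had 750, 442, 17, 162 and 363 reads. Per 1000000 cluster reads of the library, Atf1 was highest at e18.5 (28.4) and close to that at e12.5 (26.6), Tmed3 was highest at e15.5 (26.8) and Slc12a7 at P7 (37.2). Cluster reads include those of clusters over miRNA genes, such as the members' own. They summed to 44867326 at e12.5 and 24885228 in the Adult library, beside 25546696 and 22917686 miRNA reads. Scaling without the miRNA clusters was not tried, and the highest library of a gene can depend on it.

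Slc30a1, which exports zinc from the cell, had 36, 178, 545, 153 and 79 reads. Cxcl12, the chemokine that holds blood stem cells in their niche, had 180, 162, 146, 222 and 20 reads. Cbx5, which encodes the heterochromatin protein HP1 alpha, had 16, 133, 6, 90 and 52 reads. The other 4 were Prr14l with 12 to 109 reads, Otud4, a deubiquitinase, with 7 to 121, Ramp2, an accessory protein of the adrenomedullin receptor, with 14 to 129, and Dram2, a lysosomal membrane protein, with 16 to 80. All 10 had a 3′UTR site in all 5 libraries. The choice by number of libraries fixes that, and it is no result.

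The sites below are shown for the first 3 genes of the order, and for Cxcl12 and Cbx5 as longer matches with a high conservation score, a choice made after their values were seen. Each is the position of its gene in the most libraries and, among equals, with the most reads. They are written 5′ to 3′ on the strand of the mRNA from the GRCm38 genome, with the seed match in capitals.
Cxcl12, chr6:117178642-117178669, plus strand: ggtctgaagtCAGTGTTAgggaagggcc
Cbx5, chr15:103192752-103192779, minus strand: cagatgttgaCAGTGTTttgtgaatgtt
Atf1, chr15:100260726-100260753, plus strand: taacagaatgaAGTGTTtacaaaggccc
Slc12a7, chr13:73815574-73815601, plus strand: gaaagtgagatAGTGTTtacagggtagg
Tmed3, chr9:89699535-89699562, minus strand: cattggccaaaAGTGTTtacaggtcaac
The Cxcl12 site is an 8mer with a conservation score of 0.99 and was listed in all 5 libraries with 55, 162, 146, 222 and 20 reads. The Cbx5 site pairs with bases 2 to 8 (a 7mer-m8), had a score of 1.0 and was listed in all 5 libraries too. Those of Atf1, Slc12a7 and Tmed3 are 6mers, with scores of 1.0, 0.0 and 0.0.

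In each of the last 3 sequences, tac follows the match. The last 4 bases of AGTGTT and these 3 spell TGTTTAC, the 7-base match to the seed of the miR-30 family (miR-30a-5p: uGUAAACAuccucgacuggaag). This overlap was noticed in the data and then counted over all 3′UTR positions of miR-200a/miR-141. It was present in 21 of 662 positions listed in 1 library (3.17%), 10 of 150 in 2 libraries (6.67%), 4 of 39 in 3 libraries (10.3%) and 7 of 33 in 4 or 5 libraries (21.2%). Without the 3 sites that prompted the count, the last were 4 of 30 (13.3%, 95% Wilson interval 5.31 to 29.7). Of all 14181 AGTGTT matches in the annotated 3′UTRs used here, 244 (1.72%) had it. The miR-30 family, whose miR-30e-5p was also the most like in profile, made up 1.41% of miRNA reads in the e12.5 library and 8.29% at P7. Which of these miRNAs was bound at such a site was not tested.

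Clusters often held matches of other miRNAs as well. A more abundant seed family than miR-200a/miR-141 had a site in 52.3%, 49.0%, 40.9%, 40.8% and 49.7% of its 3′UTR clusters over the 5 libraries. For miR-200b/miR-200c/miR-429 the shares ran from 42.3% at e12.5 to 17.8% at P7. Among the 10 genes above, Atf1, Slc12a7, Tmed3, Slc30a1, Prr14l and Dram2 had such a family in all 5 libraries, Cbx5 in 4, Cxcl12 and Otud4 in 3 and Ramp2 in 2.

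For miR-200b/miR-200c/miR-429, 6 genes had a 3′UTR site in 4 libraries. Mbd5, a methyl-CpG-binding domain protein, had 23, 60, 202, 23 and 0 reads. Ash1l, a histone H3 lysine methyltransferase, had 425, 105, 12, 0 and 18 reads. Otud4 had 226, 54, 44, 19 and 0 reads, and Taok1, a kinase of the MAPK cascades, had 122, 31, 100, 8 and 0. Srsf1, a splicing factor of the SR family, had 52, 19, 66, 23 and 0 reads, and Scd2, a stearoyl-CoA desaturase, had 80, 0, 49, 39 and 10. Of these, Ash1l and Scd2 were the genes with a site in the Adult library, where few clusters of this seed were listed.

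With 3 libraries each, Rbm38, an RNA-binding protein, had 595, 452, 5, 0 and 0 reads. Cpox, an enzyme of heme synthesis, had 253, 238, 0, 0 and 16 reads. Lpin2, a phosphatidate phosphatase, had 358, 198, 226, 0 and 0, and Ubqln2, a ubiquitin-binding shuttle protein, had 223, 254, 0, 22 and 0. Per 1000000 cluster reads of the library, those over miRNA genes included, Rbm38 (27.4), Cpox (14.4) and Ubqln2 (15.4) were highest at e15.5 and Lpin2 (17.4) at e18.5, all in embryonic libraries. The blood list took 51.2% and 39.0% of miRNA reads there, and its part in this was not tested. Otud4 and Srsf1 had no more abundant family in their clusters in any of the 4 libraries, Mbd5 and Taok1 had one in 1 of 4, and Ash1l, Scd2 and Rbm38 in every library listed.

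The miR-200b/miR-200c/miR-429 sites printed here, with the seed match in capitals, are those of Mbd5, Otud4 and Srsf1. Mbd5 is the first gene in the order by libraries and then by scaled reads. Otud4 and Srsf1 are the genes in 4 libraries without a more abundant family. Sites of other, less abundant families were not counted for this choice.
Mbd5, chr2:49259621-49259648, plus strand: gtttggatgtCAGTATTctatgaagaac
Otud4, chr8:79675117-79675144, plus strand: ttccagtctgCAGTATTcactagaggcg
Srsf1, chr11:88051833-88051860, plus strand: aactcaaattCAGTATTAacattaggag
Mbd5 and Otud4 carry 7mer-m8 matches with conservation scores of 0.94 and 1.0 (0.999), and Srsf1 an 8mer with a score of 0.17. The Mbd5 site was the single position behind all its reads and is also annotated as intronic.

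Both seeds had 3′UTR sites in 96 genes, which were 12.1% of the miR-200a/miR-141 genes and 22.5% of the miR-200b/miR-200c/miR-429 genes. Of all 11065 genes with a 3′UTR cluster, 3.86% had a miR-200b/miR-200c/miR-429 site and 7.18% a miR-200a/miR-141 site. Over the 584 other seed families with 200 or more genes, the median share of their genes was 9.33% with a miR-200b/miR-200c/miR-429 site and 17.4% with a miR-200a/miR-141 site, so that much of the overlap is shared with other families. In 54 of them both were listed in the same library. A single cluster held both seeds in 2 cases at e12.5, 1 case at P7 and 0 cases in the other libraries. Otud4 and Slc25a37 were the genes with at least 3 libraries for each seed. Slc25a37 encodes mitoferrin-1, which imports iron into the mitochondria of red cell precursors, and had 550, 260, 423, 0 and 0 reads at its miR-200a/miR-141 site and 453, 0, 27, 29 and 0 at its miR-200b/miR-200c/miR-429 site. Otud4 carries the miR-200b/miR-200c/miR-429 site shown above and, further along the same 3′UTR, a miR-200a/miR-141 site at chr8:79676547-79676574 (ctgctcctttCAGTGTTcttgctgttca).

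Of 28 targets known from the literature, 25 had a 3′UTR cluster of any kind in some library and 8 had a member site there, beside 1126 of 11065 genes (10.2%) overall. Zeb2 was listed for both seeds. Its miR-200a/miR-141 site had 32, 0, 0, 15 and 0 reads, and its miR-200b/miR-200c/miR-429 site had 106, 20, 0, 0 and 0. Both are 8mers with a conservation score of 1.0 and no more abundant family in the cluster. The miR-200a/miR-141 site is also annotated as intronic.
Zeb2 for miR-200a/miR-141, chr2:44988347-44988374, minus strand: aaattttgtaCAGTGTTAaggcctaaaa
Zeb2 for miR-200b/miR-200c/miR-429, chr2:44987736-44987763, minus strand: gcacccgtgtCAGTATTAgacgactagg
The annotated 3′UTR of Zeb2, 6521 bases long, holds 4 matches of at least 7 bases to miR-200a/miR-141 and 8 to miR-200b/miR-200c/miR-429, and 1 of each was listed. The gene had 11, 7, 6, 9 and 2 3′UTR clusters of any miRNA, so its mRNA was sampled in all 5 libraries.

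Zeb1 had no 3′UTR site of either seed in any library. Its 3′UTR of 2404 bases holds 4 matches of at least 7 bases to miR-200a/miR-141 and 5 to miR-200b/miR-200c/miR-429, 3 of them 8mers. Clusters in the Zeb1 3′UTR were few, at 4, 3, 0, 5 and 1 over the libraries. Sites were listed within introns instead, a 6mer of miR-200a/miR-141 with 376, 153, 145, 6 and 0 reads and a conservation score of 0.003, and a miR-200b/miR-200c/miR-429 match of 7 bases with 14 reads at P7. The tables list clusters of 5 or more reads, so fewer reads at the other matches would not be seen.

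The other 7 known targets had a 3′UTR site in 1 library each, apart from Ets1 with 3. Ets1, a transcription factor of endothelial and lymphoid cells, had a miR-200b/miR-200c/miR-429 site with 112 reads at e12.5 and 62 at P7, and a miR-200a/miR-141 site with 42 in the Adult library. Cfl2, a cofilin that severs actin filaments, had 78 reads at e12.5 for miR-200b/miR-200c/miR-429. Ctnnb1, which encodes beta-catenin, had 34 reads in the Adult library for miR-200a/miR-141. Maml3, a Notch coactivator, had 30 reads at P7, Sec23a, a COPII coat protein, had 22 in the Adult library, both for miR-200a/miR-141, and Ppm1f, a protein phosphatase, had 12 in the Adult library for miR-200b/miR-200c/miR-429. The Sec23a site was another that overlaps a miR-30 match. Over the 28 genes, the annotated 3′UTRs hold 29 matches of at least 7 bases to miR-200a/miR-141 and 46 to miR-200b/miR-200c/miR-429, of which 3 and 4 were listed.

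Fn1, which encodes fibronectin, was listed mainly in its coding sequence. Its 3′UTR site had 91 reads at P7 alone, whereas 4 positions of miR-200a/miR-141 matches lay in the coding sequence. The highest of these had 87, 0, 165, 260 and 146 reads. An 8mer at chr1:71637298-71637325 on the minus strand (tgtccgatacCAGTGTTActgctacggc, match in capitals), which the tables also annotate as intronic, had 40, 0, 0, 10 and 84 reads. The remaining positions had 57, 88, 0, 28 and 0 reads, and 0, 0, 0, 68 and 54. All 4 had conservation scores of 0.98 or more, as coding sequence often does.

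The further lists were counted against the same share of 10.2% of genes overall. Of 19 genes of the epithelial-mesenchymal transition and of epithelia, 13 had a 3′UTR cluster and 1 a member site, Cdh2, which encodes N-cadherin, with 14 reads in the Adult library. Of 18 TGF-beta and BMP genes, 16 had a cluster and 3 a miR-200a/miR-141 site: the SMAD corepressor Skil with 222 reads at e15.5 and 9 at P7, and the receptors Tgfbr1 with 22 reads at P7 and Tgfbr2 with 6 in the Adult library. Of 11 Notch genes, 9 had a cluster and 2 a site. Maml1, a coactivator of Notch, had 70 reads at e15.5, 22 at P7 and 15 in the Adult library, and Notch2, a receptor, had 8 at e18.5. Of 8 biliary genes, 5 had a cluster and 1 a site, Spp1, which encodes osteopontin, with 13 reads at P7. Krt7 and Krt19 had no 3′UTR cluster of any miRNA, and Sox9 had 1 at P7 and 1 in the Adult library, without a member site. None of these counts was set against a test.

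A group of miR-200a/miR-141 sites looked unlike the rest. AGTGTT is also found within miR-142a-3p, the most abundant blood miRNA here, at its bases 4 to 9. Sites were therefore compared with miR-142a-3p itself over the 12 bases beside the match, and those with at least 9 equal bases were set apart, a limit chosen after the data were seen. From e12.5 to Adult they were 123 of 1763 sites (6.98%), 75 of 923 (8.13%), 67 of 642 (10.4%), 58 of 862 (6.73%) and 67 of 636 (10.5%). Between 65.5% and 69.9% of them lay between genes, against 17.4% to 32.3% of the other miR-200a/miR-141 sites. For miR-200b/miR-200c/miR-429, whose match has another base, such sites were at most 0.878%.

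Of their 140 positions, 89 (63.6%) were listed in 2 or more libraries and 35 (25%) in all 5, beside 747 (24.0%) and 79 (2.54%) of the 3111 other miR-200a/miR-141 positions. Over the libraries, miR-142a-3p had 322029, 371353, 239141, 88784 and 43356 rpm. Whether reads of miR-142a-3p lie at these positions was not tested. In 3′UTRs they were rare, at 3, 1, 1, 1 and 1 sites, so that the 3′UTR counts above hardly depend on them. Dram2 is among them: its stretch at chr3:106573936-106573958 on the plus strand has 20 of 23 bases equal to miR-142a-3p, with the match in capitals.
miR-142a-3p: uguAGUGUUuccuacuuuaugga
Dram2: tgtAGTGTTtgctactttatcaa

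**Figure D5:**
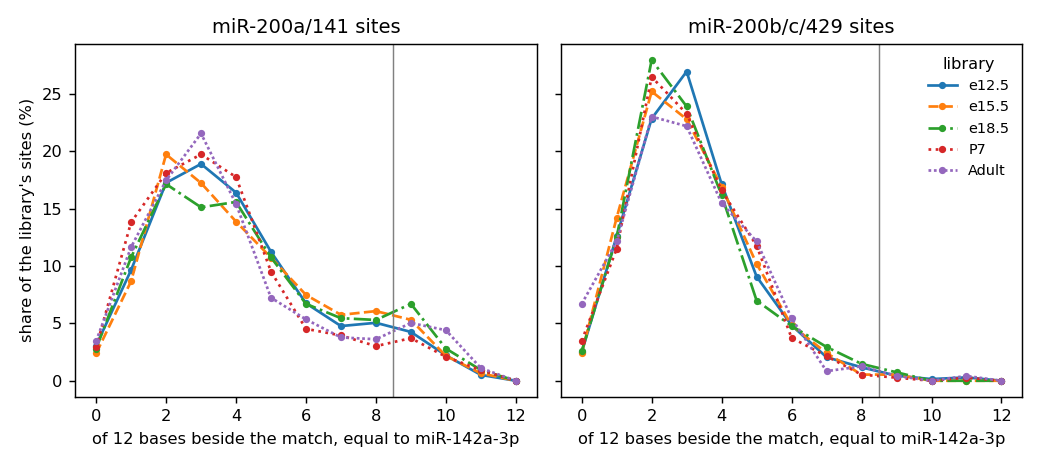
Share of the sites of each library (percent) by the number of the 12 bases beside the match that equal miR-142a-3p, for miR-200a/miR-141 (left) and miR-200b/miR-200c/miR-429 (right); sites right of the grey line have 9 or more. A shoulder at 8 to 10 equal bases is seen for miR-200a/miR-141, where 6.73% to 10.5% of the sites lie beyond the line, and for miR-200b/miR-200c/miR-429 at most 0.878% do.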

How the data were processed

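Ago HITS-CLIP was performed on livers of 5 stages, each labelled as 1 sample. For Ago2 the methods speak of 2 biological replicates. The study's tables name a second e18.5 library; how replicates were joined, and whether the second e18.5 library is in the e18.5 table, is not given in the sources used here. Shares per read of the whole library used the total of the first e18.5 library. Per the study's methods, reads were trimmed and mapped with Bowtie to mm10 (mm9 also stands in the submitters' processing notes) and to miRBase precursors of version 19, overlapping reads were grouped into clusters, and clusters were searched for seed matches of known miRNAs. Bowtie's version is not given in the sources used here.

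The deposited signal of a cluster is its highest number of reads, without scaling, and the lowest number listed was 5. Its column is headed differently at e12.5 (in the miRNA target) than in the other tables (in the peak), so that read numbers at e12.5 may be defined otherwise. The deposited score of conservation runs from 0 to 1, and the deposited score of duplex energy is in kcal/mol; the programs behind both are not given in the sources used here. The miRNA number in each interaction name was taken as its read number, the highest being used where a miRNA has several gene copies. Clusters on a strand were counted as 1 where the spans of their listed matches overlapped, as between both lists of an embryonic table. Clusters whose matches did not overlap stayed apart. Read numbers of the lists were added up. A cluster counted as 3′UTR where the table annotated any of its sites so. Coordinates are those of mm10, which is GRCm38, and miRNA loci and mature sequences came from RefSeq (GRCm38.p6). Matches in annotated 3′UTRs were counted in GENCODE transcripts, an annotation other than the one behind the tables.

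The miRNA totals were 7781484 to 25546696 reads per library, and clusters in 3′UTRs numbered 15914 to 39452. Shares carry Wilson intervals at 95%, which cover counting error only. miRNAs were compared at 100 rpm or more in either library, with a pseudocount of 1 rpm. Shares of 3′UTR clusters were compared between libraries by Fisher's exact test over all seed families with at least 50 such clusters in both, tested on simulated data, with p adjusted after Benjamini-Hochberg and called under 0.05. Genes were named by rule: known targets with a member site, the 10 genes per seed with sites in most libraries (ties by mean reads per 1000000 cluster reads), genes with at least 3 libraries for each seed, genes of 4 further lists with sites in at least 3 libraries, and the 5 miRNAs most like the family. Members of these lists outside the rule (Cdh2, Skil, Tgfbr1, Tgfbr2, Notch2, Spp1, Zeb1, Sox9, Krt7, Krt19, miR-375-3p, miR-96-5p, miR-203-3p and the 4 mesenchymal miRNAs) were named after their values were seen. The members and lists were chosen with earlier results of these data known. Python 3.11.15, pandas 2.3.3, scipy 1.17.1 and pysam 0.24.0 were used. Alternatives changed the total, the lists, the minimum of reads and the seed types.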

Additional observations from a re-analysis of the deposited data

How the results depend on the processing

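The P7 library held the highest share of the family's reads under every total tried. With the numbers of each miRNA's gene copies summed, the shares were 0.219%, 0.278%, 0.526%, 1.03% and 0.149% from e12.5 to Adult. Without the blood miRNAs in the total they were 0.607%, 0.621%, 0.980%, 1.50% and 0.233%, and per read of the whole library 0.0894%, 0.116%, 0.221%, 0.791% and 0.163%, the setting under which the Adult library was not the lowest. The first list of the embryonic tables gave 0.234%, 0.509% and 0.556%, and the second list 0.239%, 0.238% and 0.828%, so that e15.5 was then not above e12.5. For the share of 3′UTR clusters at P7 against e12.5, calls by Fisher's exact test were lost for miR-200a/miR-141 with clusters of at least 10 reads (log2 odds ratio -0.16, adjusted p = 0.34), sites of at least 7 bases (-0.32, adjusted p = 0.14) and the first list alone (-0.35, adjusted p = 0.068), and for miR-200b/miR-200c/miR-429 with clusters of all regions (-0.13, adjusted p = 0.20) and the first list alone (-0.25, adjusted p = 0.40). The exact test gained a call for miR-200a/miR-141 in the Adult library with genes in place of clusters (-0.92, adjusted p = 6.25e-11), as did most families (84.3% lower). Genes with 3′UTR sites numbered 227 and 108 for the seeds when 2 libraries were required and 382 and 237 with sites of at least 7 bases. With the first list alone, 23.0% and 14.3% of the genes were found in 2 or more libraries, a share not counted there over all families. No log2 odds ratio changed sign. Orders between libraries did turn. For the family share these were Adult with e12.5 and e15.5 per read of the whole library, and e12.5 with e15.5 in the second list. For the miR-200a/miR-141 share of 3′UTR clusters, e15.5 fell below e12.5 and e18.5 in the first list (0.950%, 1.06% and 0.977%), and Adult passed e18.5 with at least 10 reads, with at least 7 bases and in the second list. With genes in place of clusters, 4 of 10 pairs of libraries turned for miR-200a/miR-141 and 2 of 10 for miR-200b/miR-200c/miR-429, e12.5 with e15.5 and e18.5 with P7 in both. Over all regions, e18.5 passed e12.5 for miR-200b/miR-200c/miR-429 (0.353% against 0.328%). The cause was not tested. Leaving out the sites like miR-142a-3p or those that prompted the miR-30 count, the 7-base and 10-read limits on conservation, and the lists apart for the locus shares were added after the data were seen. No paired analysis was possible because each stage has 1 library. Clusters under 5 reads were not listed, which limits the lists of targets.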

Other observations

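Of the other strands of the hairpins, 4 were listed at low levels, and miR-429-5p had no entry. miR-200a-5p had 3.64, 12.4, 14.4, 12.9 and 1.61 rpm over the 5 libraries, and miR-200b-5p had 1.41, 20.6, 2.70, 19.3 and 2.31 rpm. For miR-200a the 3p arm had 5.44 times the reads of the 5p arm at e12.5 and 63.3 times at P7. miR-141-5p had at most 7.64 rpm and no entry at e15.5, and miR-200c-5p had at most 14.2 rpm and no entry in the Adult library.

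The deposited duplex energies, in kcal/mol, were compared at sites listed for every member of a seed. At e12.5 the medians were -6.6 for miR-200a-3p and -6.7 for miR-141-3p. At the miR-200b/miR-200c/miR-429 sites of the same library they were -4.9 for miR-200b-3p, -5.4 for miR-200c-3p and -5.8 for miR-429-3p. In the libraries up to P7 the order of these 3 members was the same, and in the Adult library miR-200c-3p had the lowest median at -6.25, against -5.95 for miR-429-3p and -5.15 for miR-200b-3p.

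Clusters in which a member site was the single seed match were few. For miR-200a/miR-141 they were 15 of 419 3′UTR clusters at e12.5 and 6 of 151 in the Adult library. For miR-200b/miR-200c/miR-429 they were 12 of 220 and 6 of 41.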
